A study of Mus musculus with 4 samples.

Results

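Y RNAs and the other short structured RNAs that GENCODE M21 types as misc_RNA or ribozyme were followed in small extracellular vesicles, the membrane particles that cells shed into blood. The members are all rows of the other RNA tables whose transcript identifier has one of these gene types. A row exists only where some library listed it, and GENCODE M21 holds 562 misc_RNA and 22 ribozyme genes. The members came to 21 of the 411 rows of those tables and of the 1146 rows of all tables. By role they were 2 Y RNAs (Rny1 and Rny3), 3 named 7SL genes (Rn7s1, Rn7s2 and Rn7s6), the 7SK gene Rn7sk, the vault RNA Vaultrc5, the ribozyme Rpph1 and 13 genes that carry only a Gm number. Vesicles were taken from the plasma of wild-type mice on a normal diet, 12 h after myocardial infarction surgery (MI, 2 libraries) or sham surgery (2 libraries). The sources used here do not give age, strain, sex, the number of mice behind a library or the kind of infarct. They also do not say that the 2 libraries of a group came from separate animals, so a p-value reflects the spread among 4 libraries and no more, and that spread may be technical.

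Each captured molecule was counted by a unique molecular identifier (UMI), a random tag added before amplification. The MI libraries held 872459 and 606756 UMIs over all tables, against 1523731 and 746567 UMIs in the sham libraries. The other RNA table took 18.9% and 27.8% of these UMIs in the MI libraries, against 11.5% and 15.3% in the sham libraries. Most of that table was ribosomal RNA, with 85.8% and 88.5% of its UMIs in the MI libraries and 90.0% and 91.7% in the sham libraries. The members held 4054 and 3789 UMIs in the MI libraries, against 4938 and 2640 UMIs in the sham libraries. A library listed a row only from 10 UMIs on, so an unlisted row had at most 9. Levels are given as counts per 1000000 UMIs (CPM), either of the UMIs of all tables or of those of the other RNA table. Of the 21 members, 12 were listed in all 4 libraries, 1 in 3, 1 in 2 and 7 in 1.

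Y RNAs are short RNA polymerase III transcripts whose 5′ and 3′ ends pair into a stem bound by the Ro60 protein, and whose tail of U residues is bound by the La protein. They take part in RNA quality control, and human Y RNAs also in the start of DNA replication. Blood cells are rich in them, and in human plasma their fragments are among the common small RNAs of vesicles and particles. 7SL is the RNA scaffold of the signal recognition particle, which brings secreted and membrane proteins to the endoplasmic reticulum. Vault RNA belongs to the vault, a large cytoplasmic ribonucleoprotein particle. 7SK holds the transcription elongation factor P-TEFb in an inactive complex, and Rpph1 is the RNA of RNase P, which trims the 5′ ends of tRNA precursors.

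The Y RNA sequences are shown first because the results turn on these genes. Capitals mark the outermost stem of the minimum free energy structure predicted by RNAfold, which is where the 5′ and 3′ ends pair.
Rny1: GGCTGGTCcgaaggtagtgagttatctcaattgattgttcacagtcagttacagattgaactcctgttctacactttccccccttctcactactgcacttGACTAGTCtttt
Rny3: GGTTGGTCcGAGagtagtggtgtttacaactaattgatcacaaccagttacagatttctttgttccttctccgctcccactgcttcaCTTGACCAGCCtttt
The predicted stem has 8 base pairs in Rny1 (-34.3 kcal/mol for the whole structure) and 11 in Rny3 (-27.1 kcal/mol), and a run of T, which is U in the RNA, ends both. The sequences and positions are those of GENCODE M21 on GRCm38, and the letters are the DNA strand of the RNA, 5′ to 3′. Rny3 lies on chromosome 6 from 47781624 to 47781725 on the plus strand. Rny1 lies 6343 bases further on, from 47788069 to 47788180, and is read from the minus strand. No other gene is annotated at either. Aligned to each other, they were identical in 81 of 112 columns. The deposited rows are counts per transcript, so which stretch of a Y RNA the reads came from is not recorded.

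Rny1 was counted with 168 and 122 UMIs in the MI libraries, against 449 and 172 UMIs in the sham libraries. Behind these UMIs lay 1924 and 1703 reads in the MI libraries, against 7360 and 2211 reads in the sham libraries, so sham replicate 1 stood highest in both counts. Its level was 193 CPM of all tables in MI replicate 1 (95% exact Poisson interval 165 to 224) and 201 in MI replicate 2 (167 to 240.1), against 295 in sham replicate 1 (268 to 323) and 230.4 in sham replicate 2 (197 to 268). The intervals cover counting error only. Both MI libraries lay below both sham libraries, and the intervals of both overlapped that of sham replicate 2. The mean was 197 ± 6.02 CPM in MI libraries and 263 ± 45.5 CPM in sham libraries (SD, n = 2 each), a ratio of 0.750. In bulk vesicles, fewer vesicles from a cell type and less of an RNA per vesicle cannot be told apart.

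Rny3 was counted with 100 and 140 UMIs in the MI libraries, against 237 and 128 UMIs in the sham libraries. These came from 1241 and 1617 reads in the MI libraries, against 3176 and 1496 reads in the sham libraries. Its level was 115 CPM of all tables in MI replicate 1 (95% exact Poisson interval 93.3 to 139) and 231 in MI replicate 2 (194 to 272), against 156 in sham replicate 1 (136 to 177) and 171 in sham replicate 2 (143 to 204). The MI libraries lay on either side of the sham libraries, so the groups overlapped. The mean was 173 ± 82.1 CPM in MI libraries and 163 ± 11.3 CPM in sham libraries (SD, n = 2 each), a ratio of 1.06. Summed, the Y RNAs reached 307 and 432 CPM in the MI libraries, against 450.2 and 402 CPM in the sham libraries. The log2 ratio of the summed group means was -0.21, and it was 0.019 without MI replicate 1 and -0.47 without MI replicate 2, so its direction rested on 1 library.

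Within the other RNA table, which took a larger share of all UMIs in the MI libraries, both Y RNAs were lower. Rny1 had 1017 and 723 CPM of that table in the MI libraries, against 2571 and 1504 in the sham libraries. Rny3 had 605 and 829 CPM of that table in the MI libraries, against 1357 and 1119 in the sham libraries. On this scale the groups overlapped for neither gene. Of the 114 rows listed in all 4 libraries, 12.3% were lower after MI without overlap on this scale and 42.1% were higher. Among the 12 members listed in all 4 libraries 2 were lower without overlap, Rny1 and Rny3, and 2 were higher, Gm24514 and Gm23153.

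**Figure D1:**
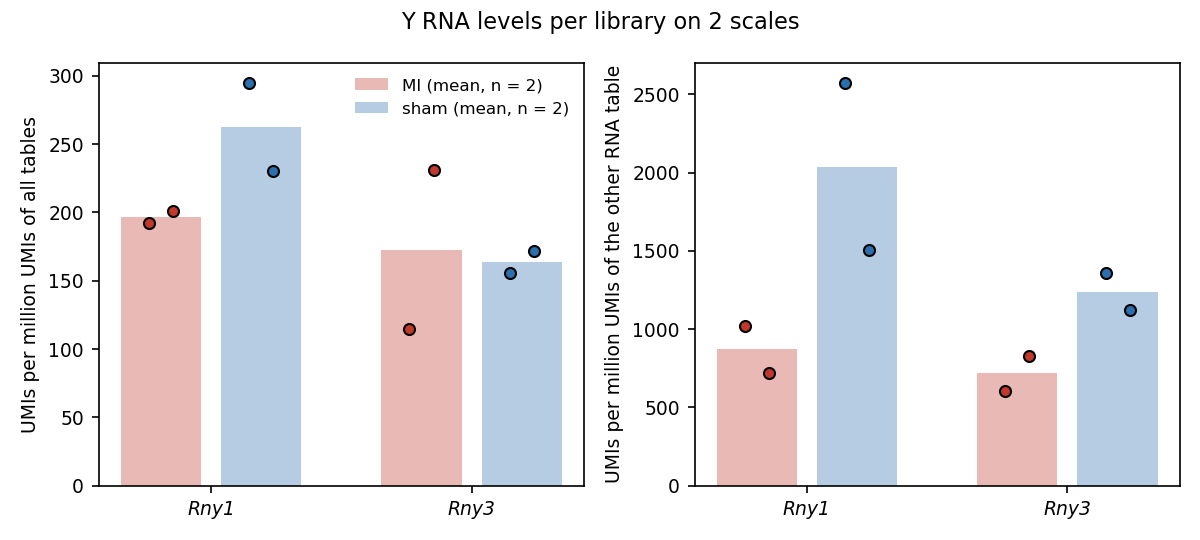
Levels of the Y RNAs Rny1 and Rny3 in each library (points) with the mean of the 2 MI and the 2 sham libraries (bars), as CPM of all tables (left) and CPM of the other RNA table (right). On the left Rny3 overlaps between the groups, while on the right both MI libraries lie below both sham libraries for each gene.

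The test across all 233 rows of the other RNA table that passed a filter on low counts (edgeR quasi-likelihood test, TMM factors, Benjamini-Hochberg adjustment) called no member at an adjusted p under 0.05, and 0% of all rows. At an unadjusted p under 0.05 it placed 3 of the 14 members tested among the lower rows and 1 among the higher rows. Over all rows tested these shares were 6.87% lower (16 rows) and 21.9% higher (51 rows). The 3 lower members were Rny1, Rny3 and Vaultrc5. The higher one was Gm26168, which was unlisted in both sham libraries and passed the filter through the MI libraries alone, and with unlisted rows at 9 UMIs no member was higher. The DESeq2 Wald test was run on the same 233 rows but gave no adjusted p for 32 of them, Gm26168 included. It called Rny1 and Vaultrc5 lower among 5 lower rows, and no member among 6 higher rows. Rny1 had a log2 fold change of -1.65 (SE 0.35, edgeR adjusted p = 0.0748) and Rny3 one of -1.16 (SE 0.33, edgeR adjusted p = 0.0951). With reads in place of UMIs the log2 fold changes were -1.88 for Rny1 (edgeR adjusted p = 0.118) and -1.24 for Rny3 (edgeR adjusted p = 0.121).

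With the 114 rows listed in all 4 libraries as the only rows in the edgeR fit, Rny1, Rny3 and Vaultrc5 were called lower, and no member was called higher. That fit called 12.3% of its rows lower (14 rows) and 21.1% higher (24 rows), so 3 of 12 members stood among the lower rows and 0 of 12 among the higher ones. The log2 fold change there was -1.72 for Rny1 (edgeR adjusted p = 3.5e-05), -1.22 for Rny3 (edgeR adjusted p = 0.00184) and -1.002 for Vaultrc5 (edgeR adjusted p = 0.0111), all relative to the other RNA table. Over the 15 alternative fits the adjusted p ranged from 3.5e-05 to 0.197 for Rny1, from 0.00184 to 0.936 for Rny3 and from 0.00662 to 0.839 for Vaultrc5. Scaled to the UMIs of all RNA classes, edgeR called 28.8% of 219 rows higher (63 rows) and 0.913% lower (2 rows). Rny1 then had a log2 fold change of -0.42 (edgeR adjusted p = 0.191) and Rny3 one of 0.072 (edgeR adjusted p = 0.936).

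A change of library size moves the log2 fold changes of all rows nearly alike, so the distance of a row from the median of the rows is nearly fixed by construction and its likeness between scalings is no sign of stability. The median log2 fold change of the 114 rows listed in all 4 libraries was -0.077 in the fit with TMM factors and 1.12 in the fit scaled to all RNA classes. Rny1 stood at -1.58 relative to that median in the fit with TMM factors and at -1.54 in the fit scaled to all RNA classes, the fourth lowest of the 114 rows in both. Rny3 stood at -1.09 and -1.05 in these fits, and ranked 13 and 14 from the lowest. Over the 15 alternative fits, leaving out each library included, the distance from the median ranged from -2.01 to -1.13 for Rny1 and from -1.44 to -0.81 for Rny3.

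Outside ribosomal RNA, all members together held 17.3% and 19.5% of the UMIs of the other RNA table in the MI libraries, against 28.3% and 27.8% in the sham libraries. Against their fellow members the Y RNAs also took a smaller share after MI. They made up 6.61% and 6.91% of the members' UMIs in the MI libraries, against 13.9% and 11.4% in the sham libraries. Ratios of counts within a library need no scaling, and 2 libraries a group cannot give an exact two-sided permutation p below 0.333. The 3 named 7SL genes together had 6.98 and 7.16 UMIs per Y RNA UMI in the MI libraries, against 2.87 and 3.95 in the sham libraries. Vaultrc5 had 3.56 and 2.44 UMIs per Y RNA UMI in the MI libraries, against 2.03 and 2.13 in the sham libraries. Per Rny1 UMI alone it had 5.68 and 5.23 in the MI libraries, against 3.105 and 3.72 in the sham libraries. None of these ratios overlapped between the groups, while the ratio of Vaultrc5 to Rny3 alone did. How many of all rows have a ratio to the Y RNAs without overlap was not counted. In CPM of all tables, 73.7% of the 114 rows listed in all 4 libraries were higher after MI without overlap. Such ratios may therefore hold for many rows besides 7SL and vault RNA. The ratio of Rny1 to Rny3 was 1.68 and 0.871 in the MI libraries, against 1.89 and 1.34 in the sham libraries, and it overlapped.

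**Figure D2:**
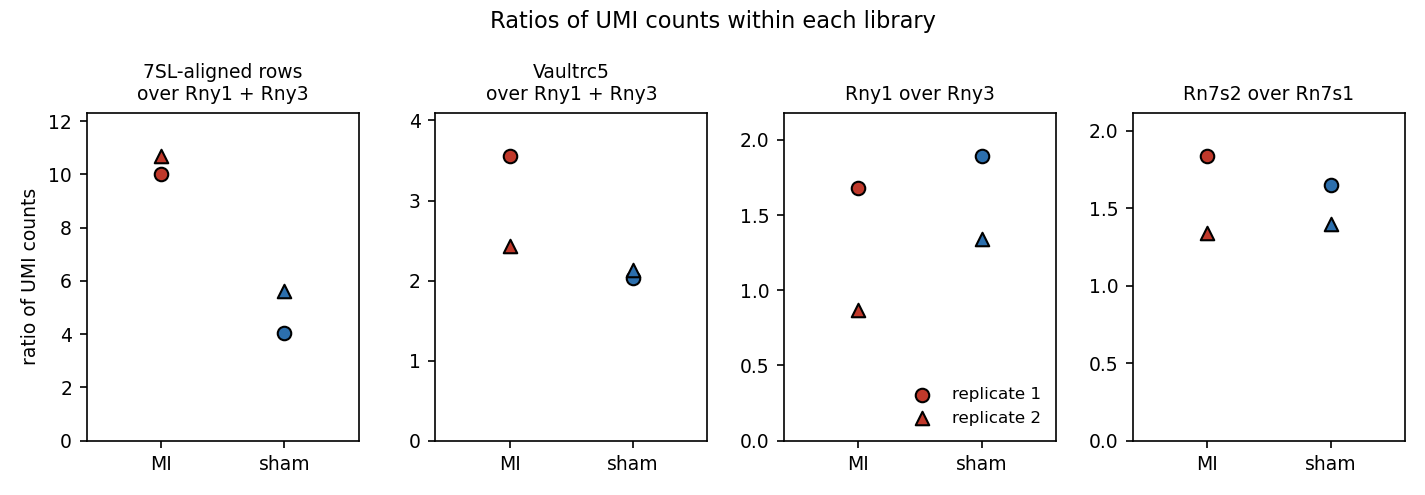
Ratios of UMI counts within each of the 2 MI and 2 sham libraries (points, circles for replicate 1 and triangles for replicate 2), from left to right for the 12 rows that align to 7SL over the Y RNAs, Vaultrc5 over the Y RNAs, Rny1 over Rny3, and Rn7s2 over Rn7s1. The first ratio is 10.01 and 10.7 in the MI libraries, against 4.06 and 5.61 in the sham libraries, while the last 2 ratios overlap between the groups.

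One further member resembles Rny1. Gm26168, on chromosome 6 from 122623547 to 122623658 on the plus strand and in no other annotated gene, aligned to Rny1 with 102 of 110 columns identical. Capitals mark its longest run that is found letter for letter in Rny1, which is 61 bases long.
Gm26168: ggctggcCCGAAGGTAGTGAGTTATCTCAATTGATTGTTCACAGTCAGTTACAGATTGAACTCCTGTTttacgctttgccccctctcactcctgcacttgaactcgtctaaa
Reads from that run could come from either gene, and the deposited counts do not say how such reads were assigned. Of the 20-base windows of Rny1, 55.9% were found in a transcript of another annotated gene, against 1.20% of those of Rny3. Gm26168 had 10 and 12 UMIs in the MI libraries and was unlisted in both sham libraries. Taking 9 UMIs for either sham library, the ratio of its mean CPM of all tables, MI over sham, was 1.74, without regard to counting error. MI replicate 1, at 11.5 CPM, lay below the limit of 12.1 CPM for sham replicate 2, so the groups may overlap. Nothing is drawn from its edgeR test, since the direction there came from the 0 entered for the sham libraries. With unlisted rows at 9 UMIs, the edgeR log2 fold change within the other RNA table was -0.075.

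Vaultrc5, the only vault RNA of the members, had the highest mean level per length of any single row among the 21 members. It averaged 685 CPM of all tables for each 100 bases of transcript over the 4 libraries, against 323 for Rn7s2, 205 for Rny1 and 165 for Rny3. Rn7s1 and Rn7s2, which have the same sequence, are separate rows in this order. Which stretch of a transcript the reads came from is not recorded, so counts need not scale with transcript length. Undivided, the mean over the 4 libraries was 979 CPM of all tables for Vaultrc5 and 969 for Rn7s2. Without regard to length, the single row Rn7s2 was above Vaultrc5 in both MI libraries and below it in both sham libraries. In MI replicate 1 these rows held 967 and 954 UMIs, and their exact Poisson intervals overlapped. How UMIs were split between Rn7s1 and Rn7s2 is uncertain, so this order is uncertain as well. Added up, the UMIs of Rn7s1 and Rn7s2 exceeded those of Vaultrc5 in every library. Vaultrc5 was counted with 954 and 638 UMIs in the MI libraries, against 1394 and 640 UMIs in the sham libraries. That was 1093 and 1051 CPM of all tables in the MI libraries, against 915 and 857 in the sham libraries, so both MI libraries were higher. In CPM of the other RNA table it had 5774 and 3779.7 in the MI libraries, against 7982 and 5595 in the sham libraries, and the groups overlapped. The edgeR log2 fold change was -0.93 (SE 0.27, adjusted p = 0.0951) in the other RNA table and turned to 0.28 (adjusted p = 0.156) when scaled to all RNA classes. Relative to the median of the 114 rows it stood at -0.86 and -0.85 in these fits.

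The 7SL genes were the largest group. With Rn7s1 itself, 12 members belong to this group by sequence, the 3 named genes and 9 of the Gm genes, each aligned to Rn7s1 over at least 80 columns with at least 65% identity, a grouping made after the values were seen. Of these, 8 were listed in all 4 libraries, and 7 of the 8 were higher after MI without overlap in CPM of all tables, where 73.7% of all such rows were. Gm24105 overlapped, and 4 were listed in a single library each, Gm25574 among them in sham replicate 2. Rn7s1 lies on chromosome 12 from 69159295 to 69159594 on the plus strand. Rn7s2 spans 69361182 to 69361481 of the same chromosome and is read from the minus strand. GENCODE M21 also places 2 miRNA entries within each of them on the same strand. The transcripts of Rn7s1 and Rn7s2 are identical over all 300 bases, yet the deposited tables gave Rn7s2 more UMIs than Rn7s1 in every library. The ratio of Rn7s2 to Rn7s1 was 1.84 and 1.34 in the MI libraries, against 1.65 and 1.40 in the sham libraries. The split between these genes is therefore uncertain, and the 7SL genes are also given as a sum.

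Rn7s1 had 603 and 1020.2 CPM of all tables in the MI libraries, against 388 and 544 in the sham libraries. Rn7s2 had 1108 and 1366 in the MI libraries, against 639.9 and 761 in the sham libraries. Rn7s6, on chromosome 6 from 69516339 to 69516629, had 432 and 704 in the MI libraries, against 266 and 281 in the sham libraries. For each of the 3 genes both MI libraries lay above both sham libraries. Summed, the 12 rows that align to 7SL had 3074 and 4619.6 CPM of all tables in the MI libraries, against 1828 and 2253 in the sham libraries, a log2 ratio of group means of 0.91. In CPM of the other RNA table the same sum was 16233 and 16606 in the MI libraries, against 15946 and 14704 in the sham libraries, a log2 ratio of 0.099.

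Of the Gm genes that align to 7SL, the most abundant were Gm26461 and Gm24514. Gm26461, in an intron of the zinc finger gene Zfp949, had 383 and 534 CPM of all tables in the MI libraries, against 224 and 264 in the sham libraries. Gm24514, which like Vaultrc5 lies on chromosome 18, had 331 and 493 in the MI libraries, against 181 and 244 in the sham libraries. On chromosome 1, Gm23153 had 121 and 168 in the MI libraries, against 61.7 and 65.6 in the sham libraries. Gm25687 had 68.8 and 211 in the MI libraries, against 46.6 and 44.2 in the sham libraries, with MI replicate 2 far above the rest. Gm24105 had 26.4 and 65.9 in the MI libraries, against 20.3 and 26.8 in the sham libraries, and overlapped. In the edgeR test within the other RNA table none of the 7SL genes passed, with log2 fold changes of -0.40 for Rn7s1 (adjusted p = 0.411), -0.38 for Rn7s2 (0.251), -0.18 for Rn7s6 (0.853), -0.30 for Gm26461 (0.481), -0.24 for Gm24514 (0.622), -0.037 for Gm23153 (0.968), -0.26 for Gm24105 (0.954) and 0.33 for Gm25687 (0.887). Scaled to all RNA classes, all 8 were positive. Rn7s2 and Gm23153 passed there, with log2 fold changes of 0.82 and 1.18 (edgeR adjusted p = 0.0423 for both), in a fit that called 28.8% of rows higher.

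**Figure D3:**
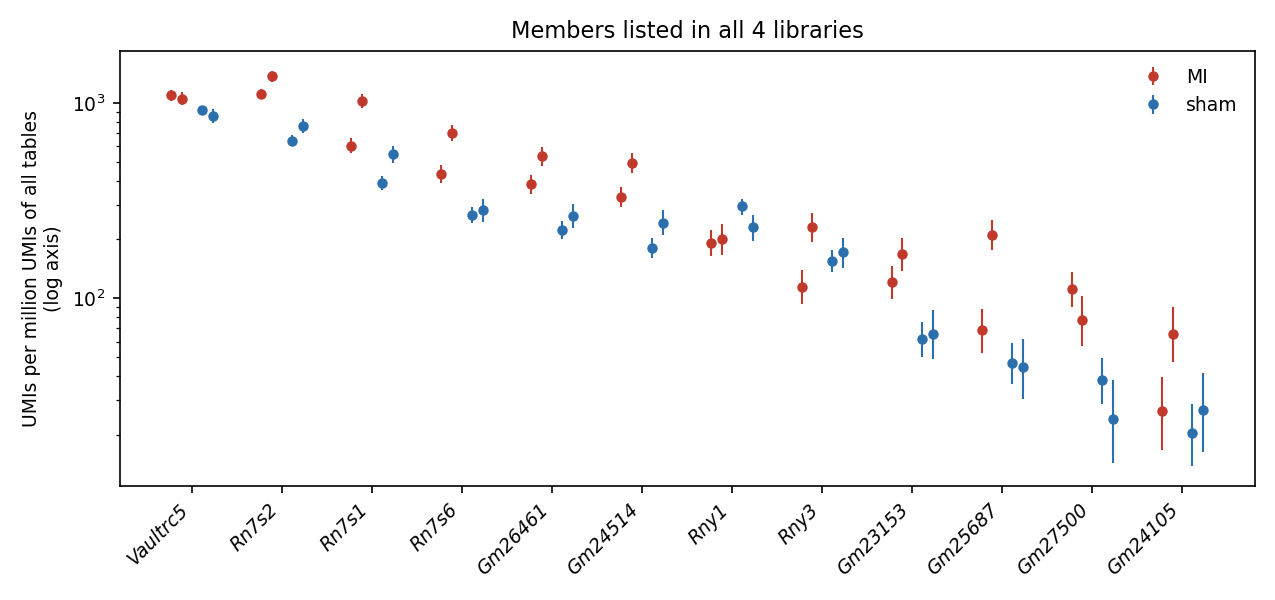
Level of each of the 12 members listed in all 4 libraries, as CPM of all tables on a log axis, for the 2 MI libraries (left of each pair) and the 2 sham libraries, ordered by mean level, with bars for 95% exact Poisson intervals, which cover counting error only. Of the 12 members 9 have both MI libraries above both sham libraries, Rny1 has both below, and Rny3 and Gm24105 overlap.

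On the scale of all tables, 9 of the 12 members listed in all 4 libraries were higher after MI without overlap, which is close to the 73.7% of all 114 such rows. Only Rny1 was lower without overlap among the members, where 4.39% of the 114 rows were (5 rows). The median log2 ratio of group means was 0.93 over the 12 members and 1.13 over the 114 rows.

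The 7SK and RNase P members were sparse. Rn7sk itself, on chromosome 9 from 78175303 to 78175633, reached the listing minimum in 1 library, MI replicate 1, with 18 UMIs or 20.6 CPM of all tables. Unlisted, it was at most 14.8 in MI replicate 2, 5.91 in sham replicate 1 and 12.1 in sham replicate 2. Gm27500, which lies opposite an intron of the thioesterase gene Acot7 and aligned to Rn7sk with 160 of 234 columns identical, had 111 and 77.5 CPM of all tables in the MI libraries, against 38.1 and 24.1 in the sham libraries. Both MI libraries were higher, at a ratio of means of 3.03, and within the other RNA table the groups overlapped. Gm26102, which aligned to Rn7sk with 168 of 248 columns identical, had 14.9 and 28.02 CPM of all tables in the MI libraries, against 9.84 in sham replicate 1, and was unlisted in sham replicate 2. Rpph1, which overlaps an exon of Ccnb1ip1 on the same strand, had 10 UMIs in MI replicate 2 and was unlisted in the other libraries.

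Of the 7 members listed in a single library, 6 were listed in an MI library and 1, Gm25574, in a sham library, with 10 to 18 UMIs each. The same split over all rows of the other RNA table was not counted, so nothing is drawn from it. That table listed 260 and 253 rows in the MI libraries, against 273 and 161 rows in the sham libraries. Gm25574 had 22.8 CPM of all tables in sham replicate 2 (95% exact Poisson interval 13.3 to 36.5), and Rn7sk had an interval of 12.2 to 32.6. For each of the 7, the most that an unlisted row could hold in sham replicate 1 (5.91 CPM) lay below the interval, and the same limit in at least 1 other library lay within it. Among them, Gm27801 aligned to no named member over 80 columns. Gm22701 had 13 UMIs from 13 reads. The 12 members listed in all 4 libraries had between 5.95 and 16.4 reads for each UMI.

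**Figure D4:**
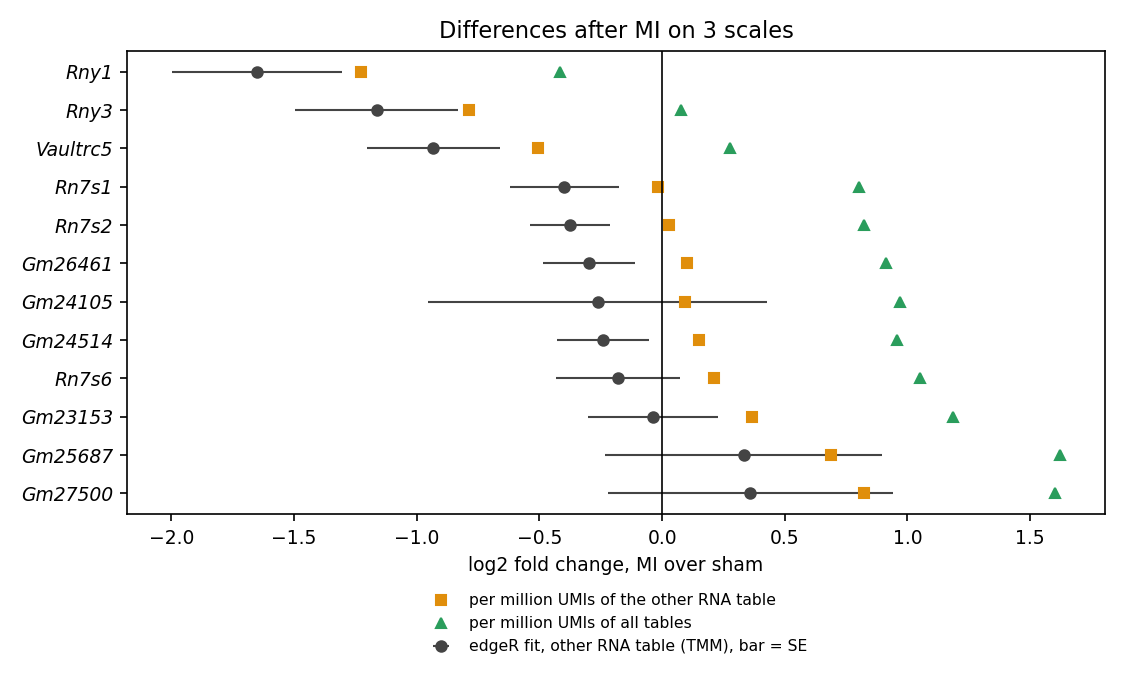
Log2 fold change of MI over sham for the 12 members listed in all 4 libraries, from the edgeR fit in the other RNA table (circles, bars are the SE), as the ratio of mean CPM of the other RNA table (squares) and of mean CPM of all tables (triangles). Rny1 is the lowest of the 12 on each scale, at -1.65, -1.23 and -0.42.

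Other small structured RNAs of the same tables were set beside the Y RNAs. In CPM of all tables, the 29 snoRNA and scaRNA rows, guides of RNA modification, summed to 848 and 989 in the MI libraries, against 553 and 426 in the sham libraries. The 31 snRNA rows, spliceosomal and related RNAs, summed to 217 and 603 in the MI libraries, against 179 and 254 in the sham libraries, with overlap. Ribosomal RNA summed to 162481 and 246178 in the MI libraries, against 103148 and 140508 in the sham libraries. The log2 ratios of group means were 0.91, 0.92 and 0.75 for these classes, against -0.21 for the Y RNAs and 0.78 for the other 19 members. These differences between classes were not tested.

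Markers of cell types that release vesicles into plasma were summed as well, with no test and no share over all miRNA rows beside them. The ratio of group means, MI over sham, was 1.37 for the red cell miRNAs and 0.784 for the platelet and leukocyte miRNAs. It was 0.340 for the hepatocyte miRNA and 1.12 for the muscle miRNAs. The 4 red cell miRNAs (miR-451a, miR-144-3p, miR-486a-5p and miR-486b-5p) were listed in all 4 libraries and summed to 49589.7 and 36731 CPM of all tables in the MI libraries, against 32227 and 30647 in the sham libraries. The platelet and myeloid miRNA miR-223-3p and the general leukocyte miRNA miR-142a-3p, given only as a sum, had 4947 and 5103 in the MI libraries, against 7279.5 and 5547 in the sham libraries. The hepatocyte miRNA miR-122-5p had 2824 and 2681 in the MI libraries, against 8650.5 and 7564 in the sham libraries. Of the 4 muscle miRNAs, all were listed in the MI libraries and 3 in the sham libraries, where miR-208a-3p was unlisted, and they summed to 2488 and 2276 in the MI libraries, against 2250.4 and 1990.4 in the sham libraries. The part of these cell types in the Y RNA levels was not tested.

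The rows of the other RNA table whose pattern was most like that of a Y RNA were found by the mean absolute difference of centred log2 CPM of that table over the 4 libraries, among the 113 other rows listed in all 4. For Rny1 they were Gm15564, typed as antisense in GENCODE, at 0.15, Dnm3os, the host transcript of miR-199a and miR-214, at 0.17, and the C/D box snoRNA Snord93 at 0.20. For Rny3 they were 1500004A13Rik at 0.035, Tmem51os1 at 0.18 and 9930004E17Rik at 0.25, the first typed as a processed transcript and the others as antisense. Rny1 and Rny3 differed from each other by 0.36 on this measure, and Rny3 ranked 10 among the rows most like Rny1. The 3 rows named for Rny3 had low counts, between 11 and 40 UMIs a library.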

How the data were processed

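Small RNA libraries of plasma small extracellular vesicles (2 MI, 2 sham) were built with the QIAseq miRNA kit, per the labels' protocols. The deposited values are raw UMI counts and raw read counts per row, per the file headers, with no normalization recorded. The sources used here name no aligner and no genome build. The lowest listed count was 10 UMIs, and the listed rows held 98.0% to 98.8% of the reads that the deposited summaries give for other RNA. Groups and replicate numbers came from the sample titles. The members and lists were chosen with earlier results of these data known.

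Of 409 Ensembl transcript identifiers in the other RNA tables, 397 matched GENCODE M21 (GRCm38), which gave names, gene types, positions and sequences. Alignments used Biopython 1.88 (local, match 1, mismatch -1, gap -2 to open and -1 to extend) and structures ViennaRNA 2.7.2. Unlisted rows were entered as 0. UMI counts of the whole other RNA table were tested with edgeR 4.0.16 (R 4.3.3), quasi-likelihood F-test, two-sided, with TMM factors. The low-count filter was filterByExpr with the groups given. It kept rows at a level equal to 10 counts at the median library size in at least 2 libraries, with 15 counts in total. Resulting p-values were adjusted after Benjamini-Hochberg and called under 0.05. Each SE is the size of the log2 fold change over the square root of F. The fit was tested on data simulated at the common dispersion of the main fit and at a lower one. The common dispersion is the spread fitted over all rows, with unlisted rows entered as 0. At it, with the listing minimum applied, none of the differences put in were called. At the lower dispersion some of the smaller and most of the larger ones were called. With the listing minimum the fit overstated the larger increases, and at the lower dispersion also the larger decreases. The spread of rows listed in all 4 libraries was not simulated on its own, so the absence of a call says little. Sums and ratios were given with no test. Described members were Rny1, Rny3 and up to 10 others of highest mean level, and the rest were given as counts and ranges. Alternatives were read counts, DESeq2 1.42.0 size factors and Wald test, library sizes of the table and of all RNA classes, 1 fit over all tables, other low-count filters, unlisted rows at 9 UMIs, a replicate block and leaving out each library. Over 114 rows, chi-square per degree of freedom was 10.9 for the MI pair and 7.10 for the sham pair, against 22.3 to 45.4 between groups. All 4 libraries were kept as separate samples, though this check cannot tell separate animals from technical spread. One sequence is not reported here.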

Additional observations from a re-analysis of the deposited data

How the results depend on the processing

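In the test of members in the other RNA table, 0 members passed. It stayed at 0 with read counts, DESeq2 size factors, library size alone, 1 fit over all tables, a replicate block and without any single library. The number past the threshold was 2 higher (Rn7s2 and Gm23153) with the library size of all RNA classes. It was 2 lower (Rny1 and Vaultrc5) in the DESeq2 Wald test. With no low-count filter and with only rows listed in all 4 libraries it was 3 lower (Rny1, Rny3 and Vaultrc5). With 10 counts in every library of 1 group it was 2 (Rny1 lower, Gm26168 higher). Gm26168 passed that filter through the MI libraries alone, with 0 entered for both sham libraries, so nothing is drawn from its call. With unlisted rows at 9 UMIs the number was 1 lower (Rny1). Over all rows the called counts, 0 higher and 0 lower in the test as reported, were 63 and 2 with the library size of all RNA classes, 37 and 6 in 1 fit over all tables, 6 and 5 in the DESeq2 Wald test, 25 and 10 with no filter, 47 and 8 with 10 counts in every library of 1 group, 33 and 5 with unlisted rows at 9 UMIs and 24 and 14 with rows listed in all 4 libraries. The cause was not tested.

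Rny1 stayed negative in all 15 alternatives (log2 fold change -2.03 to -0.42, adjusted p from 3.5e-05 to 0.197). With the library size of all RNA classes the log2 fold change was 0.072 for Rny3, 0.28 for Vaultrc5, 0.82 for Rn7s2, 0.80 for Rn7s1, 0.91 for Gm26461, 0.96 for Gm24514, 1.05 for Rn7s6 and 1.18 for Gm23153. In 1 fit over all tables it was 0.074 for Vaultrc5, 0.63 for Rn7s2, 0.61 for Rn7s1, 0.72 for Gm26461, 0.77 for Gm24514, 0.86 for Rn7s6 and 0.99 for Gm23153. With library size alone it was 0.029 for Rn7s2, 0.10 for Gm26461, 0.15 for Gm24514, 0.21 for Rn7s6 and 0.36 for Gm23153. With unlisted rows at 9 UMIs it was -0.075 for Gm26168, 0.015 for Gm24514, 0.067 for Rn7s6 and 0.21 for Gm23153, and with read counts 0.089 for Gm23153. Leaving out each library gave -0.40 to 0.033 for Rn7s6 and -0.24 to 0.17 for Gm23153, positive without sham replicate 1.

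The log2 ratio of the summed Y RNAs (-0.21) was -1.05 in CPM of the other RNA table and -0.58 in CPM of all tables but tRNA, a scale added after seeing the data. It ranged from -0.47 to 0.019 over the libraries left out, with the lowest value without MI replicate 2 and the highest without MI replicate 1. That of the other 19 members (0.78) was -0.032 in CPM of the other RNA table and 0.40 in CPM of all tables but tRNA. Read counts, miRNA UMIs as the total, unlisted members at 9 UMIs, Gm26168 among the Y RNAs and the 10 rows listed in all 4 libraries moved neither sum by more than its spread between replicates. The last 2 were also added after seeing the data.

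The replicate block gave a log2 fold change of -1.60 for Rny1 (adjusted p = 0.119) and -1.20 for Rny3 (adjusted p = 0.232) and changed no call of a member. Deviations of same-numbered libraries correlated at 0.37 over 114 rows, but the labels do not say that a number marks a shared animal or batch. The counts of 100 to 449 UMIs limit the precision of each Y RNA value.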
